A study of Caenorhabditis elegans with 11 samples.

Results

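Chromosome X beyond its left end was described here as the 1 kb bins of X from position 400001 onward, which left out the first 400 kb. That gave 17319 bins of 100257 in the genome. The other 82538 bins set beside them lie on the 5 autosomes, and 400 bins of the left end of X were left out. The bins were chosen by position and not by any measured value. Either side of the limit, the 10 bins from 390001 to 400000 averaged 2.38 to 5.28 RPKM over the libraries, and the 10 bins from 400001 to 410000 averaged 4.26 to 9.27 RPKM.

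The study profiled RNA polymerase II (Pol II) by chromatin immunoprecipitation and sequencing (ChIP-seq) in young adult hermaphrodites of Caenorhabditis elegans fed on Escherichia coli OP50. There were 8 genotypes with 1 library each: the wild-type strain N2, hrde-1(tm1200), set-32(red11), the double mutant met-2(n4256) set-25(n5021), set-32 with met-2 set-25, set-32 with hrde-1, met-2 set-25 with hrde-1, and set-32 with met-2 set-25 and hrde-1, called the mutant of all factors below. Each of the 3 factors (hrde-1, set-32, and met-2 with set-25) was thus lost in 4 libraries, the carriers, and intact in 4. Another 3 samples of the series, of trimethylated histone H3 lysine 9, were not analysed here. The labels name young adults and no tissue or cell type, and fewer cells of a kind cannot be told apart from less Pol II per cell.

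Pol II is the enzyme that transcribes protein-coding genes, and its occupancy of a bin reflects transcription there. In hermaphrodites X is held low by several mechanisms: the dosage compensation complex lowers X transcription in somatic cells, and in the germline X is largely silent and carries few germline-expressed genes. HRDE-1 is a germline Argonaute protein that carries small RNAs into the nucleus, where they direct repression of their targets. MET-2 and SET-25 are methyltransferases of histone H3 lysine 9, and SET-32 also carries a SET domain. The question the series title raises is the part of SET-32 in silencing by nuclear RNA interference.

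Values are RPKM, reads per kilobase, scaled to the depth of the library. In bins of equal length RPKM is a share of the reads, so a rise in one place lowers others. Depth, estimated from the step that 1 read makes in the low values, was 3.0 to 6.60 M reads (M, 1e6) per library. The median X bin held 8.01 to 38.5 reads, a counting error of 16.1 to 35.3%. Evenness of coverage differed between libraries: the 90th percentile of autosome bins, divided by the 10th, was 3.90 for set-32 with met-2 set-25 and 4.54 for the mutant of all factors, but 8.14 to 27.3 in the others. The former 2 are called the evenly covered libraries below. Library names carry 3 prefixes. N2, met-2 set-25 and met-2 set-25 with hrde-1 share one, set-32 with met-2 set-25 has its own, and the other 4 share another.

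Pol II on X was low in every genotype. The median X bin stood at 3.51 RPKM for N2, 3.0 for hrde-1, 2.64 for set-32 and 4.66 for met-2 set-25. In the combined mutants it was 2.97 for set-32 hrde-1, 3.33 for met-2 set-25 with hrde-1, 6.36 for set-32 with met-2 set-25 and 6.20 for the mutant of all factors. The autosome median was higher in all 8 libraries, at 4.12 to 7.50 RPKM. The ratio of X to autosome medians ran from 0.636 for hrde-1 to 0.856 for set-32 with met-2 set-25, with 0.690 for N2. By means, which weigh the strongly occupied bins, it ran from 0.433 for set-32 to 0.764 for set-32 with met-2 set-25, with 0.549 for N2. Thus X held 17.3% of the bins but 8.30 to 13.8% of the signal. The evenly covered libraries gave the ratios nearest to 1, and the part of evenness in this was not tested. Among chromosomes, the median of V lay near that of X. It was the same for N2 (3.51 RPKM), set-32 hrde-1 and met-2 set-25 with hrde-1, and slightly lower for set-32 (2.61 RPKM) and set-32 with met-2 set-25 (6.29 RPKM). It was higher for hrde-1 (3.15 RPKM), met-2 set-25 (4.97 RPKM) and the mutant of all factors (6.44 RPKM), while I and III stood at 8.37 and 8.20 RPKM for N2.

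**Figure D1:**
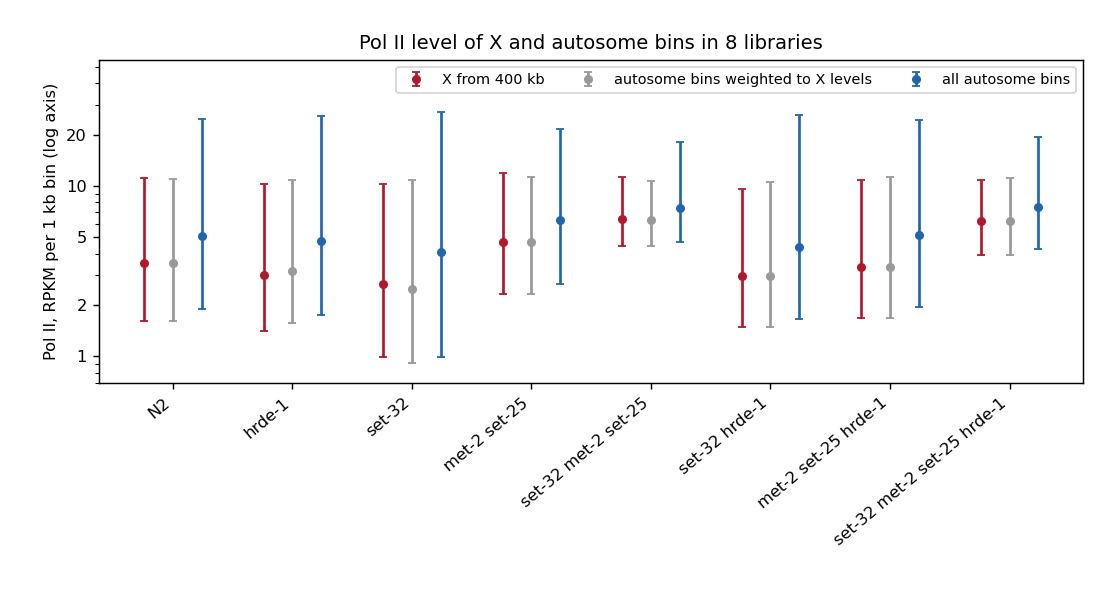
Pol II level in RPKM per 1 kb bin (log axis) in the 8 libraries. Points are medians over bins and bars run from the 10th to the 90th percentile, for X from 400 kb, for autosome bins weighted to the levels found on X, and for all autosome bins. X lies below all autosome bins in each library, with medians of 2.64 to 6.36 against 4.12 to 7.50 RPKM, and its 90th percentile is 9.57 to 11.98 against 18.2 to 27.0 RPKM.

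What set X apart was the lack of strongly occupied bins more than the floor. The 10th percentile of X bins was 0.99 to 4.46 RPKM, near the 0.99 to 4.66 RPKM of autosome bins. The 90th percentile was 9.57 to 11.98 RPKM on X and 18.2 to 27.0 RPKM on autosomes. Bins of at least 20 RPKM made up 1.78 to 3.10% of X and 7.87 to 16.7% of the autosomes. By the mean of the 8 libraries, X held 12.01% of the 50% most occupied bins of the genome, 5.11% of the top 25% and 3.19% of the top 10%, against 17.3% of all bins. In the top 1% its share was larger again, at 6.58% (66 of 1003 bins). On X the 381 bins of at least 20 RPKM formed 166 runs, or 9.58 per Mb, with a median length of 2 kb. On autosomes there were 3045 runs, 36.9 per Mb, also with a median of 2 kb. Runs of 10 kb or more numbered 2 on X and 252 on autosomes.

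By medians of 1 Mb windows X was flat along its length. Medians of 1 Mb windows ran from 3.24 to 4.05 RPKM for N2 over 18 windows, a ratio of 1.25. Over the 8 libraries this ratio was 1.11 to 1.42 on X. It was 1.29 to 2.19 on V, the autosome with the lowest median ratio over libraries (1.78), and 1.64 to 3.99 on IV. In each library X had the lowest ratio of the 6 chromosomes. Cut into 3 equal parts, X had a median of 3.51 RPKM for N2 in the left, the middle and the right part. The middle was 0.875 to 1.03 times the mean of the outer parts on X, and 1.08 to 1.3 times on chromosome I. Low medians fall on steps of 1 read, so small differences between windows are not resolved. Strongly occupied bins were less evenly spread. For N2 the share of bins of at least 20 RPKM ran from 0.833 to 4.9% over the X windows, and from 3.4 to 17% on V.

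**Figure D2:**
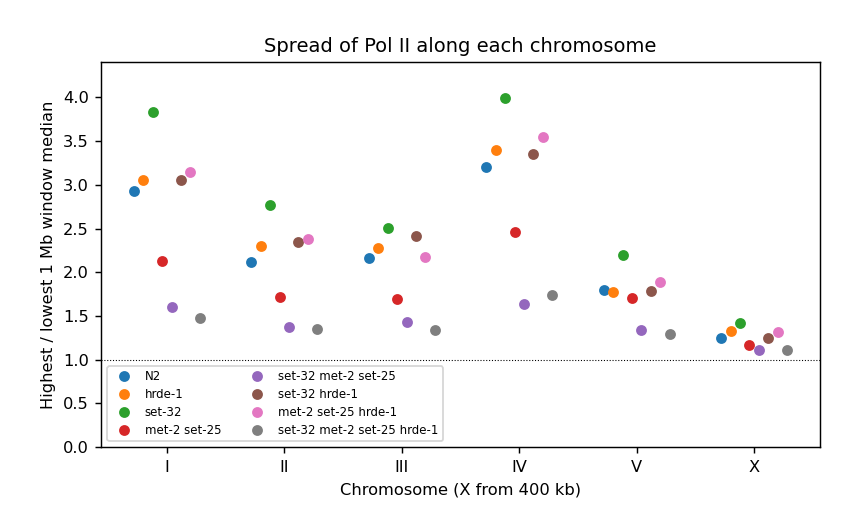
Ratio of the highest to the lowest 1 Mb window median of Pol II (RPKM) on each chromosome, 1 point per library and 1 at the dotted line meaning no spread. X from 400 kb lies at 1.11 to 1.42, below each autosome in the same library, and chromosome IV reaches 3.99.

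X was also set against autosome bins of like level. Autosome bins were weighted so that their levels (mean log2(RPKM + 1) of the 8 libraries, in strata 0.25 wide) had the distribution found on X. The weighting uses the same libraries, so it largely fixes the range and the median over bins, and these are given as a description only. The 90th percentile divided by the 10th was then 6.74 for N2 on autosomes and 6.84 on X, and 2.41 to 11.9 against 2.52 to 10.3 over the 8 libraries. Among bins averaging 2 RPKM or more, the median X bin differed from the like-level autosome median by -0.04 to 0.07 on the log2 scale. The difference was 0 except for hrde-1 (-0.042), set-32 (0.069) and set-32 with met-2 set-25 (0.028). The group values below rest on these libraries alone. By factor the 4 carriers and the 4 other libraries overlapped in this difference. It was -0.011 ± 0.021 for hrde-1 carriers and 0.024 ± 0.033 in the others (SD, n = 4 each), 0.024 ± 0.033 and -0.011 ± 0.021 for set-32, and 0.0069 ± 0.014 and 0.0067 ± 0.046 for met-2 set-25. Single bins varied between libraries as much as like-level autosome bins did, with a median SD of 0.37 and 0.38 on the log2 scale after centring. At the 99th percentile the SD was 0.73 on X and 0.82 on like-level autosome bins.

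The bins with most Pol II on X lay in a few short stretches. The most occupied 0.5% of X, 87 bins, formed 31 regions, and the highest was X 16929001 to 16941000. It read 273 RPKM for N2, 223 for hrde-1, 148 for set-32, 237 for met-2 set-25, 329 for set-32 with met-2 set-25, 230 for set-32 hrde-1, 80.4 for met-2 set-25 with hrde-1 and 170 for the mutant of all factors. The met-2 set-25 with hrde-1 library stood apart there at less than any other. Next came X 5101001 to 5107000, at 117 to 248 RPKM, lowest in the mutant of all factors and highest in N2. X 3404001 to 3409000 ran from 60.2 to 176 RPKM and X 11966001 to 11969000 from 69.4 to 179 RPKM, again with the mutant of all factors lowest.

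A set of these stretches shared their highest and lowest libraries, though not the full order. In X 3404001 to 3409000, X 3558001 to 3563000 and X 3567001 to 3572000, set-32 and met-2 set-25 with hrde-1 were the highest (136 to 176 and 143 to 171 RPKM) and the mutant of all factors the lowest (41.3 to 60.2 RPKM). N2 lay between, at 103 to 161 RPKM. Few values there are low enough for the number of reads to be read off, and of the 9 such values in each of the latter pair 11.1% and 0% were whole, and whether these stretches share reads was not tested. X 13349001 to 13351000 and X 6533001 to 6536000 had another order, with N2 highest at 170 and 135 RPKM, met-2 set-25 next at 141 and 112 RPKM, and hrde-1 at 53.7 and 52.2 RPKM. The remaining regions of the 10 were the single bin X 5056001 to 5057000, which the authors marked misanotated (spelled as in the table), at 49.0 to 183 RPKM, and X 7728001 to 7734000, at 44.6 to 137 RPKM. In the latter, too, met-2 set-25 with hrde-1 (137 RPKM) and set-32 (98.4 RPKM) were the highest and the mutant of all factors the lowest. None of the 10 passed the threshold for any factor, with limma adjusted p of 0.0972 or more. Several yolk protein genes, strongly transcribed in the adult intestine, lie on X. No genome build is named for the deposited values, so no gene was assigned to these stretches, and overlap with those genes was not tested.

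A limma test of every factor was made in each bin on log2(RPKM + 1), with the 3 factors as additive terms and all 8 libraries in one fit. The p-values were Benjamini-Hochberg adjusted over the 100027 bins of the genome that averaged 2 RPKM or more, with a threshold of 0.05. Of the X bins 17276 were tested. Bins past the threshold that moved the same way and lay next to each other, or 1 bin apart, were joined as a region. A region is given the smallest adjusted p and the mean SE found among its bins. As each genotype had 1 library, the error is the spread around the additive model, and the labels do not say whether libraries came from separate cultures.

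Loss of HRDE-1 was accompanied by few changes on X. By limma 14 X bins rose, 0.081% of those tested, against 0.852% of all bins in the genome. Among autosome bins 1.02% rose, and weighted to the levels of X 0.603% did. The median change was -0.09 on the log2 scale on X, -0.06 in like-level autosome bins and -0.04 in all bins. The upper tail was shorter on X, with a 99th percentile of 0.52 against 0.71 in like-level autosome bins. The authors mark bins as GRTS or GRH, names used in the field for targets of germline nuclear RNA interference that gain transcription or lose heterochromatin without it. None of the 191 GRTS bins and 3 of the 215 GRH bins lie on X, and those 3 are in its first 400 kb. The X count was 9 without the set-32 hrde-1 library and 25 without the mutant of all factors. It was 23, with 1 lower, when libraries were centred, and 7 among bins averaging 5 RPKM or more.

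The 14 bins formed 7 regions. At X 7345001 to 7351000 Pol II read 9.11 RPKM for hrde-1, 18.6 for set-32 hrde-1, 13.3 for met-2 set-25 with hrde-1 and 11.5 for the mutant of all factors. In the libraries with intact hrde-1 it read 3.41 for N2, 2.48 for set-32, 4.82 for met-2 set-25 and 7.29 for set-32 with met-2 set-25. The groups did not overlap, and the change was 1.39 ± 0.26 SE on the log2 scale (limma adjusted p = 0.000138; 13.1 ± 4.06 against 4.50 ± 2.10 RPKM, SD, n = 4). These are the means over its 4 bins past the threshold.

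A similar picture was seen near the right end. At X 17117001 to 17124000 the 4 hrde-1 mutants read 8.75 RPKM for hrde-1, 20.9 for set-32 hrde-1, 12.2 for met-2 set-25 with hrde-1 and 11.4 for the mutant of all factors. The others read 3.16 for N2, 3.56 for set-32, 4.57 for met-2 set-25 and 6.82 for set-32 with met-2 set-25, so that the groups were apart. The change was 1.33 ± 0.25 SE on the log2 scale (limma adjusted p = 0.000394). These are the means over its 5 bins past the threshold. Over all 7 bins the hrde-1 mutants read 7.77 to 19.3 RPKM and the others 3.45 to 7.02 RPKM. Changes of single bins ran from 0.37 to 1.44 on the log2 scale. In both stretches set-32 hrde-1 was the highest library.

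The single bin X 7364001 to 7365000 had the largest change among the means of the 7 regions, 1.5 ± 0.27 SE on the log2 scale (limma adjusted p = 0.00168). The bin X 7348001 in the stretch at X 7345001 changed more, by 1.63. The bin X 7364001 read 12.95, 19.9, 14.5 and 17.8 RPKM for hrde-1, set-32 hrde-1, the met-2 set-25 with hrde-1 library and the mutant of all factors. The met-2 set-25 and set-32 with met-2 set-25 libraries came close, at 9.65 and 10.04 RPKM, while N2 and set-32 read 3.29 and 1.65 RPKM. The 4 other regions were the single bins X 1396001, X 3129001, X 13808001 and X 17711001, with log2 changes of 0.83 to 1.07 and limma adjusted p of 0.0112 to 0.0388. At X 3129001 and X 13808001 hrde-1 was the highest library (24.4 and 20.7 RPKM, N2 7.67 and 5.65 RPKM), and at X 17711001 set-32 hrde-1 was (59.4 RPKM, N2 16.6 RPKM). The groups did not overlap in any of the 7. The regions at X 7345001, X 7364001 and X 17117001 passed under every alternative run for single regions, and the other 4 each failed under at least 4 of 16.

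All 14 risen X bins held fractions of reads. RPKM values can be turned into reads with the step of 1 read, and 89.8% of X values up to 60 RPKM then lie within 0.1 of a whole number, against 20% for evenly spread values. In the 7 risen regions the share was 12.5 to 50%. Counting bins, in a split made after the values were seen, 14922 X bins had at least 75% of their values whole and 2104 had at most 50%. None of the 14922 rose with hrde-1 loss, while 14 of the 2104 did (0.665%). On autosomes 294 of 61232 mostly whole bins rose (0.480%) and 499 of 18277 mostly fractional ones (2.73%). Among mostly whole bins with a mean of 8 to 16 RPKM, 0 of 2049 rose on X and 102 of 11410 (0.894%) on autosomes. The sources used here do not give how the authors counted reads that match several places. If such reads were divided, the changes of these 14 bins cannot be told apart from changes elsewhere in the genome.

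In the other direction 6 X bins fell with loss of HRDE-1, 0.035% of those tested, against 0.08% of all bins. Of the 80 bins that fell in the genome, 44 lie in the first 400 kb of X, which was left out. Among autosome bins 0.036% fell, about the share on X, and weighted to the levels of X 0.014% did. Of X bins with a mean of 16 RPKM or more 0.75% fell (5 of 667), and of such autosome bins 0.137%. The 6 bins formed 5 regions, all with whole reads in 100% of their values. At X 17420001 to 17422000 the hrde-1 mutants read 11.9 RPKM for hrde-1, 15.7 for set-32 hrde-1, 22.1 for met-2 set-25 with hrde-1 and 13.7 for the mutant of all factors. The others read 57.5 for N2, 62.6 for met-2 set-25, 37.8 for set-32 with met-2 set-25, and 12.85 for set-32. The set-32 library, with intact hrde-1, thus lay within the range of the mutants, and the change was -1.17 ± 0.25 SE on the log2 scale (limma adjusted p = 0.00978). At X 6536001 to 6537000 the 4 hrde-1 mutants read 11.4 to 31.2 RPKM and the others 20.8 to 47.9 RPKM, with set-32 lowest of the latter. The groups overlapped, and the change was -0.89 ± 0.21 SE on the log2 scale (limma adjusted p = 0.0338; 20.6 ± 9.69 against 37.8 ± 12.01 RPKM, SD, n = 4).

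The other lower bins, X 11476001, X 12800001 and X 3241001, fell by 0.82, 0.77 and 0.76 on the log2 scale (limma adjusted p = 0.0366, 0.0457 and 0.0379). Their groups did not overlap, but the calls were lost under 10, 12 and 10 of 16 alternatives. Those at X 17420001 and X 6536001 were lost under 8 and 6. All 5 were lost when libraries were centred. In all 5 regions N2 and met-2 set-25 were the highest libraries, and both share a name prefix. With the prefix as a term 3 X bins fell, with the only library of its prefix fitted exactly and so without weight. The count was 1 without hrde-1, 2 without set-32 with met-2 set-25, 3 without N2, 21 without set-32 hrde-1, 53 without the mutant of all factors and 56 without set-32.

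**Figure D3:**
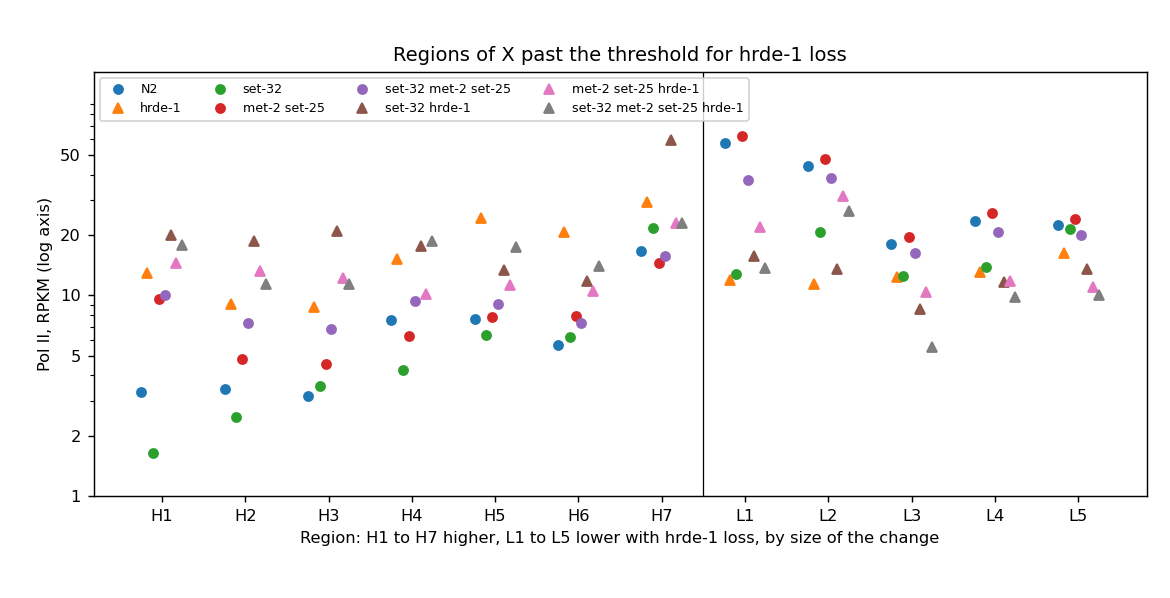
Pol II (RPKM, log axis) in each of the 8 libraries at the 12 X regions past the threshold for hrde-1 loss, with hrde-1 mutants as triangles and the other libraries as circles. In H1 to H7 the triangles lie above all circles. In L1 and L2 the set-32 circle lies among the triangles, at 12.85 and 20.8 RPKM.

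Loss of SET-32 gave no call on X: by limma 0 of 17276 bins rose and 0 fell, against 0% and 0.001% of all bins. Of the libraries with intact set-32, only hrde-1 shares a name prefix with set-32 mutants. Thus set-32 loss and prefix can hardly be told apart. At an unadjusted p under 0.05 there were 416 higher and 314 lower X bins of 17276. Together this is a smaller share than the 0.05 that would pass with no effect at all. The median change was 0.13 on the log2 scale on X and 0.13 in like-level autosome bins. The lower bins with the smallest p were X 421001, X 3783001 and X 13469001, none of which passed (limma adjusted p = 0.288, 0.342 and 0.647). At X 421001 to 422000 the set-32 mutants read 3.95 RPKM for set-32, 6.77 for set-32 with met-2 set-25, 4.95 for set-32 hrde-1 and 4.24 for the mutant of all factors. The other libraries read 11.1 for N2, 5.94 for hrde-1, 19.3 for met-2 set-25 and 31.1 for met-2 set-25 with hrde-1. The hrde-1 library lay within the range of the set-32 mutants. The high ones were the 3 libraries of one name prefix, in this bin and also at X 3783001 and X 13469001.

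Toward higher values, the bins with the smallest p were X 1664001, X 17132001 and X 17131001 (limma adjusted p = 0.692, 0.717 and 0.753). At X 1664001 to 1665000 the groups overlapped, with set-32 at 2.14 RPKM and N2 at 2.43 RPKM. At X 17131001 to 17132000 the set-32 mutants read 6.59 to 16.4 RPKM and the others 5.13 to 5.42 RPKM, and at X 17132001 to 17133000 they read 7.25 to 12.3 and 3.24 to 7.12 RPKM. Both lie a few kb to the right of the stretch that rose with hrde-1 loss. With 1 library left out, the counts for set-32 loss became 3 higher and 2 lower (set-32 left out), 0 and 13 (set-32 hrde-1), 0 and 9 (hrde-1) and 0 and 2 (N2).

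With MET-2 and SET-25 both lost, 48 X bins were higher, 0.278% of those tested, against 0.318% of all bins and 0.338% of like-level autosome bins. Lower were 2 X bins (0.012%), against 0.127% of all bins and 0.031% of like-level autosome bins. The median of all bins moved by 0.40 on the log2 scale, and that of X by 0.54, as in like-level autosome bins (0.54). The change followed the level of a bin. X bins with a mean of 2 to 4 RPKM changed by a median of 0.70, those of 4 to 8 by 0.43, those of 8 to 16 by 0.08 and those of 16 or more by -0.13. Autosome bins of the same classes stood at 0.70, 0.45, -0.08 and -0.36. Low bins being higher and high bins lower goes with evener coverage, and both evenly covered libraries are carriers of met-2 set-25. The part of evenness was not tested. Without these 2 libraries 2 X bins rose and 1 fell, in a fit with 2 residual degrees of freedom in place of 4. With libraries centred on their medians 81 X bins rose and 154 fell.

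**Figure D4:**
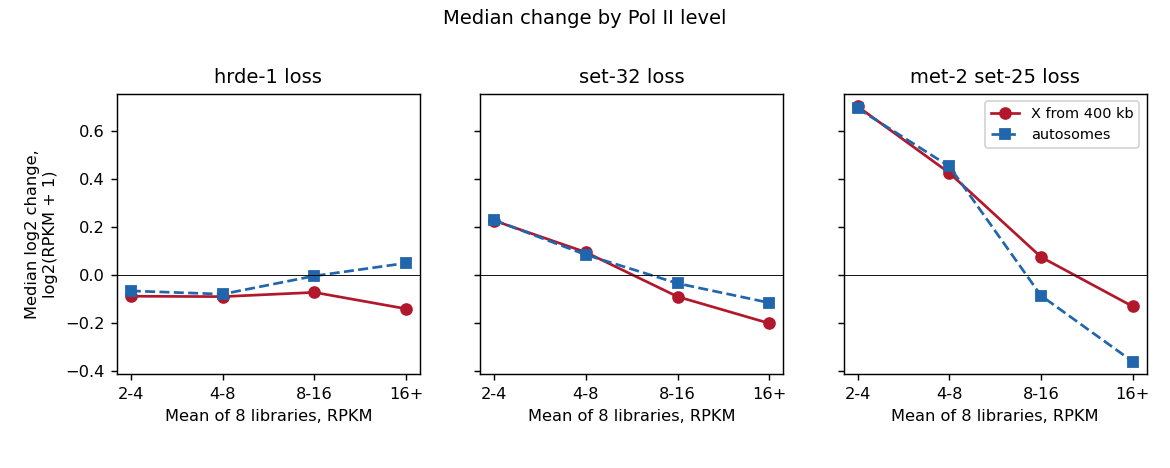
Median log2 change of bins, on the log2(RPKM + 1) scale, with loss of each factor, by the mean level of the bin over the 8 libraries, for X from 400 kb and for autosomes. With met-2 set-25 loss both fall with level, from 0.70 to -0.13 on X and from 0.70 to -0.36 on autosomes. In bins of 16 RPKM or more the hrde-1 medians are -0.14 on X and 0.05 on autosomes.

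The 48 higher bins formed 27 regions, and 19 of the bins lay in 1 of them, X 7366001 to 7387000. There Pol II read 10.3 RPKM for met-2 set-25, 13.6 for set-32 with met-2 set-25, 5.61 for met-2 set-25 with hrde-1 and 9.29 for the mutant of all factors. The non-carriers read 3.0 for N2, 2.48 for hrde-1, 1.94 for set-32 and 3.72 for set-32 hrde-1. The groups did not overlap, and the change was 1.48 ± 0.29 SE on the log2 scale (limma adjusted p = 0.000459; 9.69 ± 3.28 against 2.78 ± 0.76 RPKM, SD, n = 4). Relative to the median of all bins, centred libraries gave 0.98 (limma adjusted p = 0.00421). Without both evenly covered libraries the change was 1.20 and did not pass (limma adjusted p = 0.238), in a fit with only 2 residual degrees of freedom. Reads there were mostly whole, in 88.2% of the values. The carriers with hrde-1 loss were the lower ones of each pair, though the interaction of the factors called no X bin.

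The domain lies 15 kb to the right of the stretch at X 7345001 that rose with hrde-1 loss. From left to right, the 6 kb from X 7345001 read 3.15 RPKM for N2, 17.2 for set-32 hrde-1 and 4.51 for met-2 set-25, and were 18.8% whole. The next 13 kb, X 7351001 to 7364000, averaged 3.59 RPKM for N2, 3.96 for hrde-1 and 2.62 for set-32, and 7.43 to 10.2 RPKM in the 4 met-2 set-25 carriers and 7.87 RPKM for set-32 hrde-1. Of their values 19.2% were whole. In the 21 kb from X 7366001 set-32 hrde-1 read 3.6 RPKM and met-2 set-25 10.2 RPKM. The 18 kb beyond, X 7387001 to 7405000, read 2.92 RPKM for N2 and 3.19 to 6.57 RPKM in the carriers. No bin of these stretches carries a GRTS or GRH mark.

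**Figure D5:**
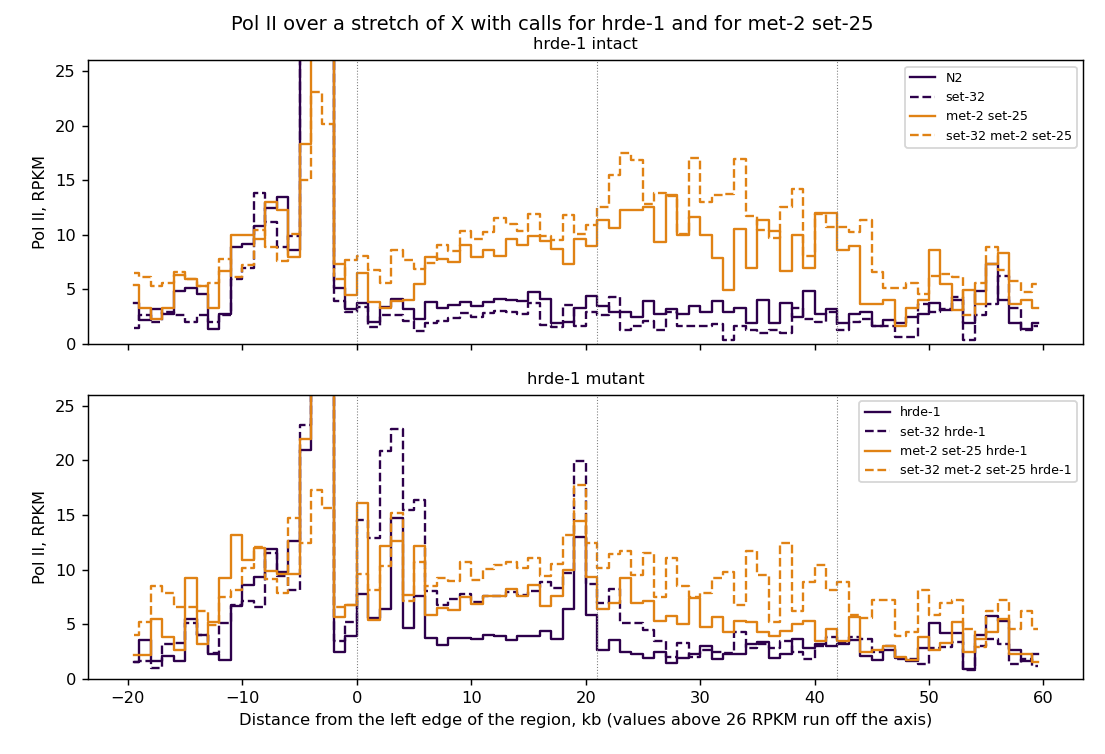
Pol II (RPKM) per 1 kb bin against the distance in kb from the left edge of the region that rose with hrde-1 loss, with hrde-1 intact libraries above and hrde-1 mutants below. Orange lines are met-2 set-25 mutants, dashed lines set-32 mutants, and dotted verticals mark 0, 21 and 42 kb. From 0 to 6 kb and near 20 kb the hrde-1 mutants peak, and from 21 to 42 kb the orange lines lie above the dark ones, at 5.53 to 13.2 against 1.91 to 3.6 RPKM on average.

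The other higher regions named by size were short. X 11199001 to 11202000 read 17.2 RPKM for met-2 set-25 with hrde-1, 9.60 for met-2 set-25, 7.40 for set-32 with met-2 set-25 and 5.76 for the mutant of all factors, against 2.56 to 3.18 RPKM in the other 4 (log2 change 1.40 ± 0.28 SE, limma adjusted p = 0.00948). Carriers had 10.3 to 14.7 RPKM in the bin X 3967001 to 3968000, and the others 2.31 to 6.75 RPKM (log2 change 1.39 ± 0.25 SE, limma adjusted p = 0.00851). Single bins at X 5686001, X 6713001, X 14642001, X 5513001, X 5077001, X 2939001 and X 3315001 rose, from 1.25 to 2.39 RPKM on average in the others to 5.81 to 7.70 RPKM in the carriers, with limma adjusted p of 0.0191 to 0.0485. These 7 calls were each lost under 5 to 10 of 15 alternatives, and those at X 11199001 and X 3967001 under 5 and 6 of 16. At such levels a bin rests on few reads, and the median of all bins moved too. In the lower region, X 4454001 to 4456000, carriers had 10.8 to 23.0 RPKM against 34.9, 36.1 and 32.3 RPKM for hrde-1, set-32 and set-32 hrde-1. N2 read 17.7 RPKM, within the range of the carriers (log2 change -1.02 ± 0.23 SE, limma adjusted p = 0.0415), and the call was lost under 9 of 16 alternatives. The next bin, X 1979001, did not pass (limma adjusted p = 0.0588).

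The met-2 set-25 counts depended on single libraries. There were 6625 higher and 101 lower X bins without met-2 set-25 with hrde-1, and 1022 and 24 without N2. Like-level autosome bins moved about as much. In either direction 38.9% of X bins and 42% of like-level autosome bins were called in the former fit. In the fit without N2 the shares were 6.05% and 6.21%. Leaving out set-32 hrde-1 gave 94 higher and 2 lower X bins. Higher bins numbered 16 when hrde-1 was left out, 21 for set-32, 6 for set-32 with met-2 set-25, and 22 for the met-2 set-25 library. Lower bins numbered 0 without hrde-1, set-32 or set-32 with met-2 set-25, and 1 without met-2 set-25 or the mutant of all factors.

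Whether an effect differed between backgrounds was tested as a product term added to the model. For hrde-1 by set-32, limma called 18 X bins higher and 1 lower, 0.104% and 0.0058% of those tested. Of all bins 0.133% and 0.021% were called, and of like-level autosome bins 0.080% and 0.0063%. The 18 bins formed 12 regions. In 8 of them N2 and met-2 set-25, which share a name prefix, were the highest libraries. The hrde-1 and set-32 libraries, with lower values there, share another prefix, so genotype and prefix cannot be told apart. At X 10140001 to 10141000, for example, Pol II read 35.1 RPKM for N2, 22.0 for the met-2 set-25 library, 6.47 for hrde-1, 3.29 for set-32, 9.74 for set-32 hrde-1, 15.2 for set-32 with met-2 set-25, 7.88 for met-2 set-25 with hrde-1 and 20.6 for the mutant of all factors (interaction 2.69 ± 0.44 SE, limma adjusted p = 0.000146). In 1 region, X 1666001 to 1668000, Pol II was high in set-32 hrde-1 (32.2 RPKM) and next in the mutant of all factors (10.1 RPKM), against 0.66 to 4.95 RPKM in the others (interaction 3.0 ± 0.64 SE, limma adjusted p = 0.00952). Higher calls numbered 1 without set-32, 2 without met-2 set-25 with hrde-1, 4 without N2, 7 without the mutant of all factors, 57 without hrde-1 and 77 without set-32 with met-2 set-25, and lower calls 0 without met-2 set-25 alone or together with hrde-1, 2 without N2 or set-32 with met-2 set-25, and 7 with hrde-1 left out.

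For set-32 by met-2 set-25 there were 10 higher and 2 lower X bins, 0.058% and 0.012% of those tested. This term marks the evenly covered libraries and no others, so genotype and evenness of coverage cannot be told apart. Of all bins 0.036% and 0.216% were called, and of like-level autosome bins 0.033% and 0.049%. At X 1490001 to 1493000 Pol II read 37.1 RPKM for N2, 31.2 for set-32 with met-2 set-25, 25.4 for the mutant of all factors and 6.52 to 16.5 RPKM in the other 5 (interaction 2.64 ± 0.40 SE, limma adjusted p = 0.00495). At X 9884001 to 9885000 both evenly covered libraries read 13.4 and 14.7 RPKM, below the 41.1 to 76.2 RPKM of the others (interaction -2.60 ± 0.33 SE, limma adjusted p = 0.00495). Higher calls fell to 0 without N2, met-2 set-25 with hrde-1 or the mutant of all factors, to 1 without set-32, 2 without hrde-1 and 5 without set-32 with met-2 set-25, and rose to 297 without met-2 set-25 and 1573 without set-32 hrde-1. Lower calls numbered 0 without hrde-1, met-2 set-25 with hrde-1 or the mutant of all factors, 1 without set-32, 5 without set-32 with met-2 set-25, 36 without met-2 set-25 and 46 without set-32 hrde-1. With libraries centred they were 17 higher and 56 lower. For hrde-1 by met-2 set-25, limma called 0 X bins in either direction, against 0% and 0.001% of all bins. At an unadjusted p under 0.05 there were 103 higher and 192 lower X bins of 17276. Together these are also under the share of 0.05 that would pass with no effect. The counts past the threshold reached 9 higher and 24 lower without the mutant of all factors, and 1 and 18 without N2. They were 1 and 3 with set-32 left out, 1 and 5 for set-32 with met-2 set-25, 0 and 3 for the hrde-1 library, and 0 and 2 for set-32 hrde-1.

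Each mutant was also set against N2 by a rule of size, with no test: a difference of 1 or more on the log2 scale, with 10 RPKM or more in whichever library was higher. The 7 comparisons share the N2 library. Only met-2 set-25 and met-2 set-25 with hrde-1 have the name prefix of N2. In the other mutants genotype and prefix cannot be told apart. Bins past the rule were joined as above, and values of a region are means over those bins. With single loss of hrde-1 or set-32, more X bins were lower than higher. In hrde-1, 162 were lower and 26 higher (0.935% and 0.150% of X, against 0.911% and 0.873% of all bins). In set-32, 204 were lower and 30 higher (1.18% and 0.173%, against 1.17% and 0.51% of all bins). Like-level autosome bins gave 0.527% lower and 0.583% higher for hrde-1, and 0.771% and 0.268% for set-32. The longest lower region in hrde-1 was X 1486001 to 1492000, at 68.5 RPKM for N2, 26.7 for hrde-1, 31.0 for set-32 and 47.3 for met-2 set-25.

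The longest lower region in set-32 was X 4137001 to 4148000, at 41.5 RPKM for N2 and 17.5 for set-32, with 19.4 for hrde-1 and 32.6 for met-2 set-25. The set-32 hrde-1 library had 214 lower and 90 higher X bins (1.24% and 0.520%, against 1.1% and 1.21% of all bins). Its longest higher region ran from X 17117001 to 17135000, at 16.4 RPKM against 3.74 for N2, so it extended the stretch that rose with hrde-1 loss to the right. In met-2 set-25 with hrde-1, 190 were lower and 123 higher (1.10% and 0.710%, against 1.28% and 1.59%). Its longest lower region was the strongest stretch of X, X 16929001 to 16942000, at 75.8 RPKM against 257 RPKM for N2. Like-level autosome bins gave 0.706% lower and 0.720% higher for set-32 hrde-1, and 0.686% and 1.17% for met-2 set-25 with hrde-1.

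With met-2 set-25 loss and intact hrde-1 the balance was the other way. In met-2 set-25, 77 X bins were higher and 22 lower (0.445% and 0.127%, against 0.738% and 0.48% of all bins). In set-32 with met-2 set-25, 234 were higher and 91 lower (1.35% and 0.525%, against 1.25% and 1.47%). Of like-level autosome bins, 0.864% were higher and 0.279% lower for the former mutant. For the latter these shares were 1.18% and 0.424%, so in both mutants the balance was the same way as on X. In met-2 set-25 the longest higher region was X 7366001 to 7375000, within the domain above, and in set-32 with met-2 set-25 it ran from X 7363001 to 7390000, at 12.9 RPKM against 3.06 for N2. In the mutant of all factors, 234 were higher and 135 lower (1.35% and 0.779%, against 1.93% and 1.72%). Like-level autosome bins gave 1.79% and 0.562% for this mutant. Its longest higher region was X 4026001 to 4056000, at 17 RPKM against 6.08 for N2, with 14.2 for set-32 with met-2 set-25, 9.79 for met-2 set-25 and 4.74 to 6.75 RPKM in the other 4 mutants. Of its 30 bins 18 carry the misanotated mark, and 19.6% of its values were whole reads. When libraries were centred, higher bins fell to 13, 20 and 9 in these 3 mutants and lower bins rose to 118, 648 and 800, so their balance depends on the scaling. In set-32 it turned as well, to 176 higher and 117 lower bins, and in set-32 hrde-1 to 164 higher and 137 lower.

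The remaining regions named by the rule of size were shorter. In hrde-1 the higher one was X 3129001 to 3131000, at 17.7 RPKM against 5.77 for N2, where hrde-1 loss also gave a call. In set-32 it was the bin X 1375001 to 1376000, marked misanotated, at 54.45 RPKM against 21.6 for N2. In met-2 set-25 with hrde-1 it was X 7345001 to 7351000, the stretch described for hrde-1 loss. Of the lower ones, X 6809001 to 6815000 read 29.3 RPKM for N2 and 11.3 for set-32 with met-2 set-25, with whole reads throughout. X 3403001 to 3408000, in the strongly occupied stretch at X 3404001, read 139 RPKM for N2 and 48.3 for the mutant of all factors. X 4137001 to 4145000 read 18.5 RPKM for N2, 18.9 for met-2 set-25 and 7.46 for set-32 hrde-1, with 6.92 for hrde-1 and 7.72 for set-32. X 1490001 to 1492000 read 50.3 RPKM for N2 and 20.05 for met-2 set-25, with 8.35 to 39.1 RPKM in the other mutants, and none of its 15 values up to 60 RPKM was a whole number of reads.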

How the data were processed

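Pol II ChIP-seq libraries of 8 genotypes were analysed, 1 library each. The authors deposited RPKM values in bins of 1 kb, with yes-or-no marks (GRH, GRTS, misanotated) per bin. The labels do not say by what criteria a bin was marked. Bowtie 0.12.7, a read aligner, is named per the submitters' processing notes. No build is named there, and chromosome V ends at 20920 kb in the table, so no gene or sequence was assigned. Of 43 library columns 8 matched a sample by name and 35 were not used. Whole reads were not recovered for enough values (82.9 to 84.4% of those up to 8 RPKM), so no count model was used.

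Tests used limma 3.58.1 (R 4.3.3, trend) on log2(RPKM + 1). This scale understates changes of low bins. Tests were two-sided, with 4 residual degrees of freedom (3 with a product term). A prefix term, or leaving out both evenly covered libraries, left 2 (1 with a product term). Leaving out 1 library left 3 (2 with a product term). Descriptions used Python 3.11.15, numpy 2.4.6 and pandas 2.3.3. Named regions were up to 10 per factor and direction by size of the mean change, or the 3 bins with the smallest p where fewer than 3 passed, the 10 most occupied regions, and for each mutant the region with the most bins past the rule of size in each direction. The fit and the weighting to like level were tested on simulated data. Members, lists and rules were chosen with earlier results of these data known. No genotype has a replicate, and p-values rest on the spread of libraries around the fitted model. Alternatives changed pseudocount, filter, scaling, prefix, libraries, the start on X and the matching of levels.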

Additional observations from a re-analysis of the deposited data

Results flagged for a closer look

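A product term in limma called 4 sets of X bins. For hrde-1 by set-32 they were 18 higher and 1 lower, and for set-32 by met-2 set-25 10 higher and 2 lower. The latter term marks only the evenly covered libraries, so genotype and evenness of coverage cannot be told apart. In 8 of the 12 higher regions of the former, the highest libraries shared a name prefix, and there genotype and prefix cannot be told apart. The 5 largest log2 interactions were 3.0 for the region starting at X 1666001, 2.69 at X 10140001, 2.67 at X 6515001, 2.64 at X 1490001 and -2.60 at X 9884001. X 6515001 to 6516000 read 6.93 RPKM in set-32 with met-2 set-25 and 7.50 in the mutant of all factors, the evenly covered libraries, and 0.33 to 3.5 RPKM in the others (limma adjusted p = 0.0437). These regions were singled out after their values were seen. A search for single outlying libraries was not made, since no genotype has more than 1 library.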

How the results depend on the processing

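No paired analysis was possible because each genotype has 1 library. Of 376 counts, percentages and differences recomputed under alternatives, 213 stayed within 1.5 times the reported count or 1 SD of the reported difference and 163 did not. Of 472 values of single regions, 315 kept direction and side of the threshold, 143 lost the call, 13 gained one and 1 turned: X 13469001 for set-32, to 0.18 with a prefix term. Depth limits the low bins.

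X bins called, as higher then lower where both moved, were as follows. Fits with a prefix term or without both evenly covered libraries had 2 residual degrees of freedom, and 1 with a product term. Their counts thus differ from the others in the error estimate too. For hrde-1 loss (14 and 6) the count was 10 lower with a pseudocount of 2 RPKM, 7 and 1 for means from 5 RPKM, 23 and 1 centred, 0 lower with quantile normalization, 3 lower with a prefix term and 10 lower without both evenly covered libraries. For met-2 set-25 loss (48 and 2) it was 27 and 0 with a pseudocount of 0.5 RPKM, 90 higher with 2 RPKM, 1 lower without a filter, 4 and 0 for means from 5 RPKM, 81 and 154 centred, 1 and 0 with quantile normalization, 2 and 0 with a prefix term, and 2 and 1 without both evenly covered libraries. For hrde-1 by set-32 (18 and 1) it was 11 and 0 with 0.5 RPKM, 29 higher with 2 RPKM, 0 and 0 for means from 5 RPKM, 3 and 0 centred, 0 and 0 with quantile normalization, 162 and 14 with the prefix, and 120 and 6 without both evenly covered libraries. For hrde-1 by met-2 set-25 (0 and 0) it was 1 and 8 without both of these. For set-32 by met-2 set-25 (10 and 2) it was 6 higher with 0.5 RPKM, 21 and 5 with 2 RPKM, 4 and 1 for means from 5 RPKM, 17 and 56 centred, 2 and 1 with quantile normalization, and 30 and 6 with the prefix. It could not be fitted without both evenly covered libraries.

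Leaving out 1 library gave 9 to 25 higher and 1 to 56 lower X bins for hrde-1, 0 to 3 and 0 to 13 for set-32, 6 to 6625 and 0 to 101 for met-2 set-25, 1 to 77 and 0 to 7 for hrde-1 by set-32, 0 to 9 and 0 to 24 for hrde-1 by met-2 set-25, and 0 to 1573 and 0 to 46 for set-32 by met-2 set-25. The like-level autosome bins called ran from 0.447 to 0.858% for hrde-1, 0 to 0.033% for set-32 and 0.0758 to 42% for met-2 set-25. The difference of X from like-level autosome bins between carriers and others ran from -0.043 to -0.020 for hrde-1, 0.020 to 0.043 for set-32 and -0.016 to 0.021 for met-2 set-25.

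Like-level autosome bins called in either direction were 0.616% for hrde-1 loss, 1.25% for means from 5 RPKM and 1.08% when matched on N2. For set-32 (0.00018%) they were 0 with 0.5 RPKM, for means from 5 RPKM, with quantile normalization and without both evenly covered libraries, 0.0025% with 2 RPKM and 0.013% with the prefix. For met-2 set-25 (0.369%) they were 0.237% with 0.5 RPKM, 0.768% with 2 RPKM, 0.123% for means from 5 RPKM, 3.51% centred, 0.0283% with quantile normalization, 0.0699% with the prefix and 0.0225% without both evenly covered libraries. The difference of X for set-32 loss (0.035) was -0.0074 by means over bins, an alternative chosen after seeing the data, as was leaving out misanotated bins.

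X bins past the rule of size against N2, with 5 RPKM in place of 10, were 76 higher and 353 lower for hrde-1, 70 and 591 for set-32, 784 and 64 for met-2 set-25, 3777 higher for set-32 with met-2 set-25, 451 lower for set-32 hrde-1, 276 and 320 for met-2 set-25 with hrde-1 and 3213 higher for the mutant of all factors. Centred, they were 54 higher for hrde-1, 176 and 117 for set-32, 13 and 118 for met-2 set-25, 20 and 648 for set-32 with met-2 set-25, 164 and 137 for set-32 hrde-1, and 9 and 800 for the mutant of all factors. The cause of these moves was not tested.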
